A study of Homo sapiens with 6 samples.

Results

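The genes described here are 6 metallothioneins, MT1E, MT1F, MT1G, MT1M, MT1X and MT2A, together with MTF1 and SLC30A1. They were chosen by symbol, for their place in zinc buffering and zinc export, and all 8 were found among the 23062 identifiers of the expression tables. Of these 8, 7 reached 1 FPKM in at least 3 of the 6 libraries and were tested beside all other genes that did so, 12359 in total, and MT1G was listed at 0 in every library. FPKM is a fragment count scaled by transcript length and by the mapped fragments of the library, so that levels of different genes can be set side by side.

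The study asked how gene expression in DU145 cells changes under taraxasterol (TAX), a pentacyclic triterpene found in dandelion. DU145 is an established human prostate cancer line that grows without androgen. RNA was sequenced from 3 libraries of wild-type DU145 cells kept in MEM medium (control) and 3 libraries of the same cells given TAX at 56 µM, the IC50 for these cells, both for 48 h. TAX was dissolved in DMSO for the study, and whether the control medium held DMSO is not stated in the sources used here, so that TAX and its solvent cannot be told apart. The labels do not say that the 3 libraries of a group came from separate cultures, so the p-values measure only the spread between these libraries.

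Metallothioneins are small, cysteine-rich proteins that bind zinc, copper and cadmium and buffer the free zinc of the cell. MTF1 is a transcription factor that senses zinc and binds metal response elements (MREs) upstream of the metallothionein genes and of SLC30A1, whose product ZnT1 carries zinc out across the plasma membrane. Normal prostate epithelium holds unusually much zinc, a property that prostate cancers commonly lose.

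The 6 metallothionein genes lie in one cluster on chromosome 16. In GENCODE 29 on GRCh38 this cluster held 16 metallothionein genes, 11 protein-coding and 5 pseudogenes, and 76.0 kb separated the start of MT2A from the end of MT1X. MT2A lies at chr16:56608199-56609497, MT1E at chr16:56625475-56627112, MT1M at chr16:56632233-56633986, MT1F at chr16:56657694-56660698 and MT1X at chr16:56682424-56684196, all on the plus strand. MT1G, at chr16:56666731-56668065, was the only gene of the cluster annotated on the minus strand. MTF1 (chr1:37809567-37859620) and SLC30A1 (chr1:211571568-211578742) lie far apart on the minus strand of chromosome 1.

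The upstream sequences are shown because the MRE is the DNA site that MTF1 binds, and the searched windows differed in how many copies they held. RefSeq promoters (GRCh38.p14) were matched for 4 of the 8 genes, MT2A, MT1X, SLC30A1 and MTF1. The MRE core was searched as TGCACNC or TGCGCNC on both strands of the 250 bases before the RefSeq start site, which is not the gene start of GENCODE 29 given above. The RefSeq start lies 385 bases inside the GENCODE gene for MT2A, 46 for MT1X and 28 for MTF1, and 419 bases before it for SLC30A1. The sites of MT2A thus fall within its GENCODE interval, and the 419 bases nearest the GENCODE start of SLC30A1 were not searched. The windows are therefore not equivalent, and a count in them is not a count for the whole gene. MT2A held 7 cores, MT1X 4, SLC30A1 1 and MTF1 0. Among all 35116 promoters searched in the same way, 24.8% held at least 1 core, 0.37% at least 4 and 0.0313% at least 7. In the lines that follow, each written 5′ to 3′ on the strand of the gene, capitals mark the cores and positions count back from the RefSeq start site.
MT2A site on chr16:56608334-56608354, plus strand, core at −246 to −240: ccgcTGCACCCagccccttcc
MT2A site on chr16:56608406-56608432, plus strand, core at −168 to −162: cccgcggcccGTGTGCAgagccgggtg
MT2A site on chr16:56608421-56608447, plus strand, core at −153 to −147: cagagccgggTGCGCCCggcccagtgc
MT2A site on chr16:56608435-56608461, plus strand, core at −139 to −133: cccggcccagTGCGCGCggccgggtgt
MT2A site on chr16:56608486-56608512, plus strand, core at −88 to −82: agcgcggggcGTGTGCAggcagcgccc
MT2A site on chr16:56608520-56608546, plus strand, core at −54 to −48: gcggggctttTGCACTCgtcccggctc
MT2A site on chr16:56608566-56608583, plus strand, core at −8 to −2: cttgccgcgcTGCACTCc
MT1X chr16:56682220-56682423, plus strand, −250 to −47: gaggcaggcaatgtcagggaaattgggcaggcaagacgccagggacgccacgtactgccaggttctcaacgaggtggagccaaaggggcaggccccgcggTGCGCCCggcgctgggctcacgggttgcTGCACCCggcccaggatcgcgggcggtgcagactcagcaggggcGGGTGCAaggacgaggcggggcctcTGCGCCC
SLC30A1 chr1:211579162-211579411, minus strand, −250 to −1: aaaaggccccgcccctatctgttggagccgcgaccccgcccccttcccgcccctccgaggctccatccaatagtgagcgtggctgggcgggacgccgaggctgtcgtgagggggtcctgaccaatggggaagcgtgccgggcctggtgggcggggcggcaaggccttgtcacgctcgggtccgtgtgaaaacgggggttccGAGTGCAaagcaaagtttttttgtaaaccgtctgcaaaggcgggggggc

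The cores of MT2A ran from position −246 to −2, and those of MT1X lay between −150 and −47. The single core of SLC30A1 was on the opposite strand at −49 to −43. A GC box (GGGCGG, both strands), the site of SP1-type factors, occurred 2 times in MT2A, 2 in MT1X, 6 in SLC30A1 and 1 in MTF1, against 42.6% of all promoters with at least 1. A TATA box (TATAAA, strand of the gene) was found once each in MT2A, at −29 to −24, and MT1X, at −30 to −25, and in 6.8% of all promoters. An antioxidant response element core (TGACNNNGC, both strands) occurred once each in MT2A, MT1X and SLC30A1, and in 10.9% of all promoters. These matches describe letters in a window and not bound sites.

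**Figure D1:**
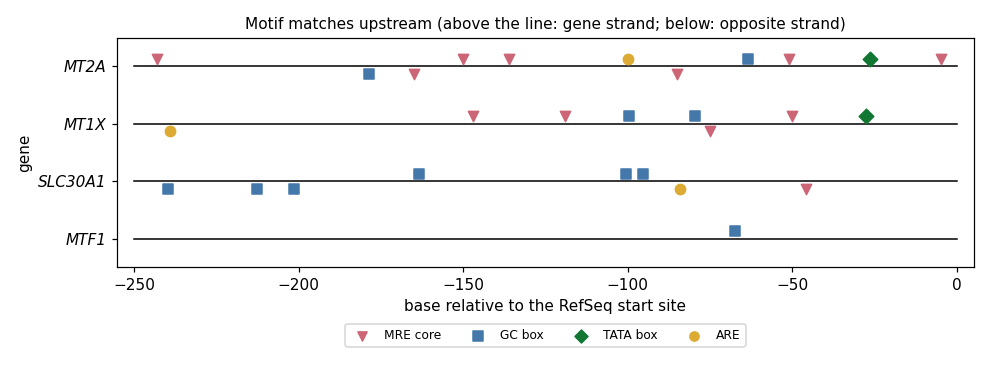
Position of each searched motif in the 250 bases upstream of MT2A, MT1X, SLC30A1 and MTF1, in bases from the start site, with marks above the line for matches on the strand of the gene and below it for the other strand. MT2A carries 7 MRE cores, MT1X 4, SLC30A1 1 and MTF1 0.

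The libraries summed to between 322483 and 363724 FPKM and listed 3997 to 4798 identifiers at 0, and those of a group correlated at r = 0.991 to 0.995 over tested genes. Epithelial markers were present in every library, among them KRT8 at 126 to 173 FPKM, while KLK3, the gene of prostate-specific antigen, was listed at 0. Of the 5 epithelial markers, KRT8 and CDH1 overlapped between the groups. The other 3 were higher in every TAX library than in any control library, as were 14.6% of all tested genes. KRT18 was at 108 to 137 FPKM in control and 147 to 172 FPKM in TAX. KRT19 was at 98.6 to 126 and 138 to 151 FPKM, and EPCAM at 55.0 to 63.0 and 63.5 to 66.2 FPKM. For KRT18, KRT19 and EPCAM the adjusted p from limma was 0.411, 0.336 and 0.570. Of 8 markers of leukocytes, endothelium and fibroblasts, CD3E, COL1A2 and DCN were at 0 in all libraries, and the 8 summed to 21.9 to 28.7 FPKM in control and 33.9 to 34.9 FPKM in TAX, nearly all of it CD68. Without CD68, which is also a lysosomal protein gene of other cells, the sum was 1.94 to 2.09 FPKM in control and 1.43 to 1.49 FPKM in TAX. The part of these differences in the results was not tested.

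MT2A, the most abundant metallothionein mRNA, was lower in TAX than in control cells. Its level was 782.2, 660.1 and 612.3 FPKM in the control libraries and 572.5, 521.2 and 542.7 FPKM in the TAX libraries. All 3 TAX values lay below all 3 control values. The means were 685 ± 87.6 FPKM (SD, n = 3) in control and 545 ± 25.8 FPKM in TAX, a TAX to control ratio of 0.796. On the log2(FPKM + 1) scale used for every test, the difference was −0.32 with an SE of 0.11 and a 95% interval of −0.57 to −0.076. The adjusted p from limma (Benjamini-Hochberg over all 12359 genes) was 0.372, which did not pass the threshold of 0.05, and the unadjusted p from the same model was 0.0151. In bulk RNA, fewer cells that express a gene and less of its RNA per cell cannot be told apart.

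MT1X, a widely expressed metallothionein of the MT1 group, showed a difference of similar kind. It stood at 64.4, 81.3 and 56.8 FPKM in control and at 52.3, 34.8 and 51.8 FPKM in TAX. Again no TAX library reached the lowest control library, though TAX 1 and control 3 lay close together. Its means of 67.5 ± 12.5 and 46.3 ± 9.97 FPKM (SD, n = 3) gave a ratio of 0.686. The log2 difference was −0.54 with an SE of 0.17 (95% interval −0.91 to −0.17), and the adjusted p from limma was 0.292 (unadjusted 0.00815). Leaving out single libraries moved the log2 difference between −0.66 and −0.35, the latter without TAX 2.

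MT1F, another zinc- and copper-binding MT1 protein gene, was expressed far less. Its values were 10.3, 9.04 and 7.23 FPKM in control and 7.07, 4.54 and 6.42 FPKM in TAX. The groups did not overlap, but the gap between control 3 and TAX 1 was narrow. The ratio of means was 0.678, from 8.86 ± 1.55 to 6.01 ± 1.31 FPKM (SD, n = 3). The log2 difference was −0.50 with an SE of 0.15 (95% interval −0.83 to −0.17), with an adjusted p of 0.273 and an unadjusted p of 0.00728 in limma.

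MT1E, the second most abundant of the 6, overlapped between the groups. Control libraries held 203.0, 216.6 and 165.0 FPKM and TAX libraries 179.5, 139.5 and 163.7 FPKM. TAX 2 and TAX 3 lay below every control library and TAX 1 did not, whereas after rescaling to TPM, by quantiles or by medians the groups did not overlap. The log2 difference of −0.27 had an SE of 0.13 and a 95% interval of −0.55 to 0.0039, which includes 0, and the adjusted p from limma was 0.493. It lay between −0.39 and −0.17 when single libraries were left out, the latter without TAX 2, and the unadjusted p from limma was 0.0157, 0.0263 and 0.0106 after quantile, TPM and median rescaling.

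MT1M, a further MT1 gene, overlapped widely between the groups. It was at 4.35, 5.14 and 4.89 FPKM in control and at 5.93, 3.67 and 3.99 FPKM in TAX. The highest and the lowest value both came from TAX libraries. Its log2 difference was −0.087 (95% interval −0.39 to 0.22), with an adjusted p of 0.842 in limma, and it was 0.024 without TAX 2 and −0.26 without TAX 1.

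Of the 7 tested genes, 0 passed an adjusted p of 0.05, against 59 of 12359 genes, or 0.477%, called in either direction, 39 higher and 20 lower (47 and 48 under quantile normalization, 46 and 50 under median centring). At an unadjusted p under 0.05, 3 of the 7 were lower in TAX (MT1F, MT1X and MT2A) and 0 were higher, against 2.41% of all tested genes lower and 7.73% higher. The groups did not overlap for the same 3 genes in the lower direction, against 3.34% of all tested genes, and for 1 gene, MTF1, in the higher direction, against 14.6%. All 5 tested metallothioneins had a negative log2 difference, though that of MT1M turned positive without TAX 2, with a median of −0.32, where the median over all tested genes was 0.054. Without TAX 1, 5 genes were lower at an unadjusted p under 0.05 and 5 lower without overlap, and without TAX 2, MTF1 was higher at an unadjusted p under 0.05. The metallothioneins share one cluster and part of their sequence, so they are not independent of each other.

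**Figure D2:**
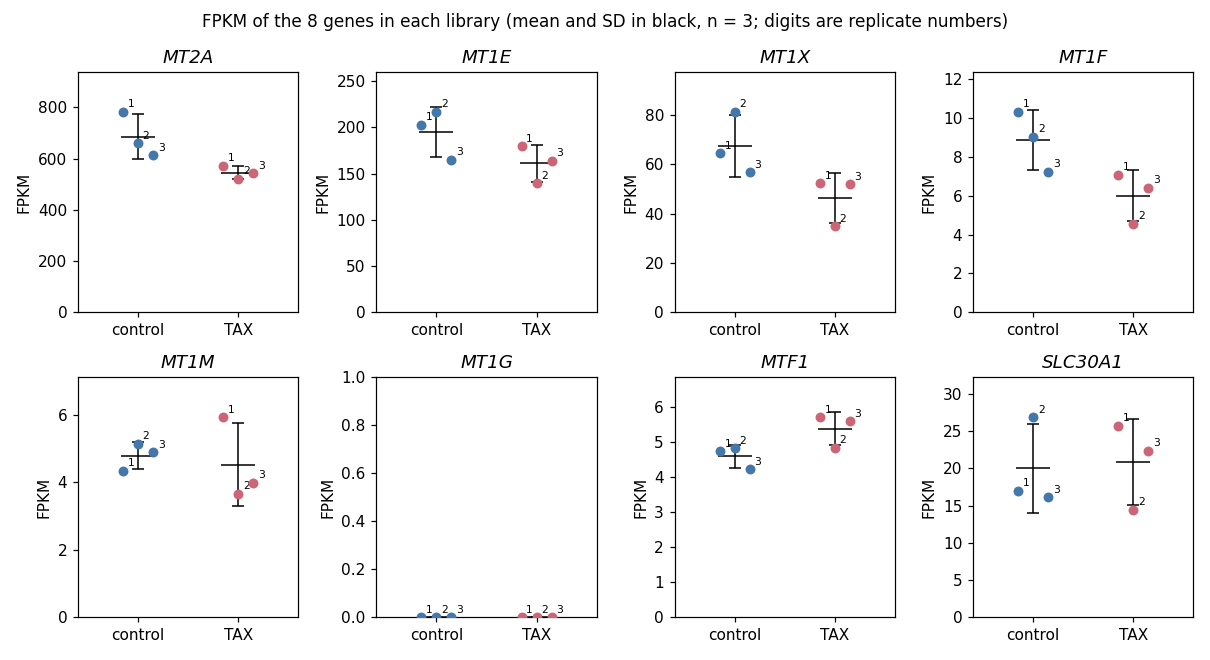
FPKM of each of the 8 genes in the 3 control and 3 TAX libraries, on axes that start at 0, with points for libraries, digits for replicate numbers and black bars for the mean and SD. MT2A, MT1X and MT1F show TAX points below all control points, and SLC30A1 and MT1M overlap.

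**Figure D3:**
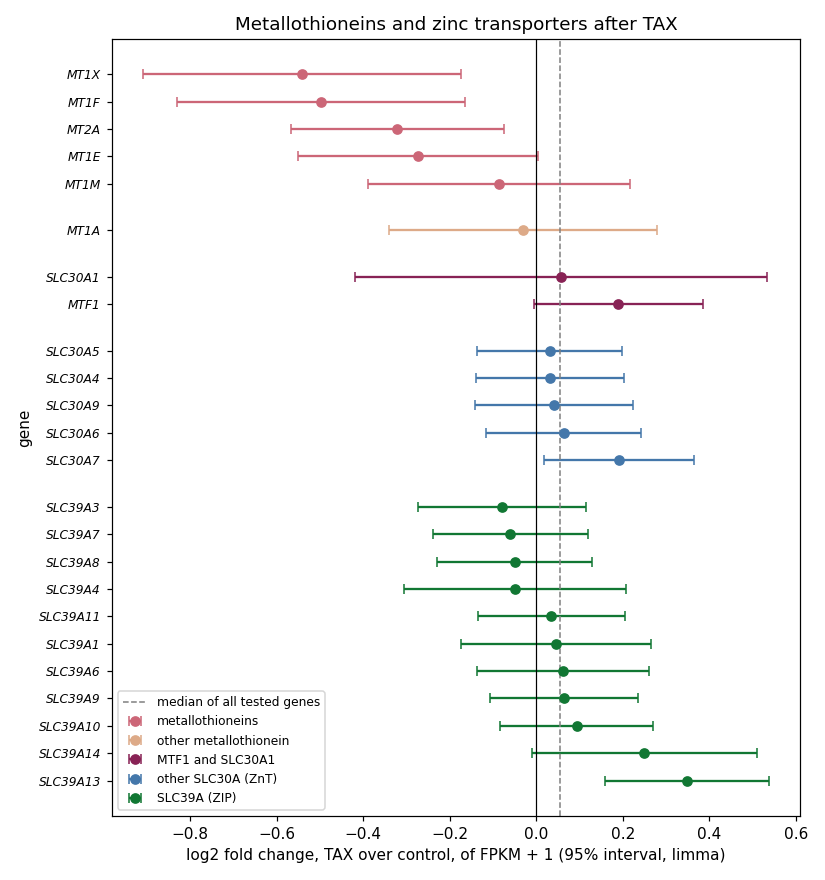
Log2 difference, TAX minus control, on the log2(FPKM + 1) scale for the tested metallothioneins, MTF1, SLC30A1 and the other listed genes named on the axis, with 95% intervals from limma and a dashed line at the median of all tested genes. Of the 7 tested genes described, the intervals of MT1X, MT1F and MT2A lie below 0, and those of the other 4 include it.

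The summed FPKM of the 6 metallothioneins was 1064, 972 and 846 in control and 817, 704 and 769 in TAX. Means were 961 ± 109 and 763 ± 57.0 (SD, n = 3), a ratio of 0.794, and the groups did not overlap. As a share of all FPKM in the library this was 0.278% ± 0.0151 in control and 0.217% ± 0.0185 in TAX. The composition of the sum stayed close, with MT2A at 71.2% ± 2.96 and 71.6% ± 2.18 and MT1E at 20.3% ± 1.74 and 21.0% ± 1.10. MT1X made up 7.04% ± 1.19 of it in control and 6.03% ± 0.954 in TAX.

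MTF1, the zinc sensor, was at 4.74, 4.82 and 4.22 FPKM in control and at 5.71, 4.84 and 5.59 FPKM in TAX. The groups did not overlap, but control 2 and TAX 2 were nearly equal, and on the TPM scale they did overlap. The log2 difference was 0.19 with an SE of 0.088 (95% interval −0.0063 to 0.38), and the adjusted p from limma was 0.496.

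SLC30A1, the zinc exporter, did not separate the groups. Its level was 17.0, 26.9 and 16.1 FPKM in control and 25.7, 14.4 and 22.4 FPKM in TAX. Each group held both high and low libraries, and the sign of the difference turned under quantile normalization (−0.0080), under median centring (−0.00098) and without some single libraries (−0.11 to 0.29 over the 6). The log2 difference was 0.057 with an SE of 0.21. The 95% interval of the TAX to control fold ran from 0.748 to 1.45 (limma, adjusted p = 0.940). Changes within that range were compatible with these values, and the range is not a limit of detection.

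MT1G was listed at 0 FPKM in all 6 libraries, as were MT1H beside it, MT1B beyond the expressed MT1F, and MT4 at the far end. MT1A, the only other metallothionein of the cluster that passed the filter, was at 3.46 ± 0.807 FPKM in control and 3.35 ± 0.661 FPKM in TAX (log2 difference −0.031, adjusted p from limma 0.950). MT3, the brain metallothionein, did not exceed 0.140 FPKM. Expression was thus concentrated in MT2A, MT1E and MT1X. Only the pseudogene MT1L lies between MT2A and MT1E, whereas MT1X lies at the end of the cluster opposite MT4.

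**Figure D4:**
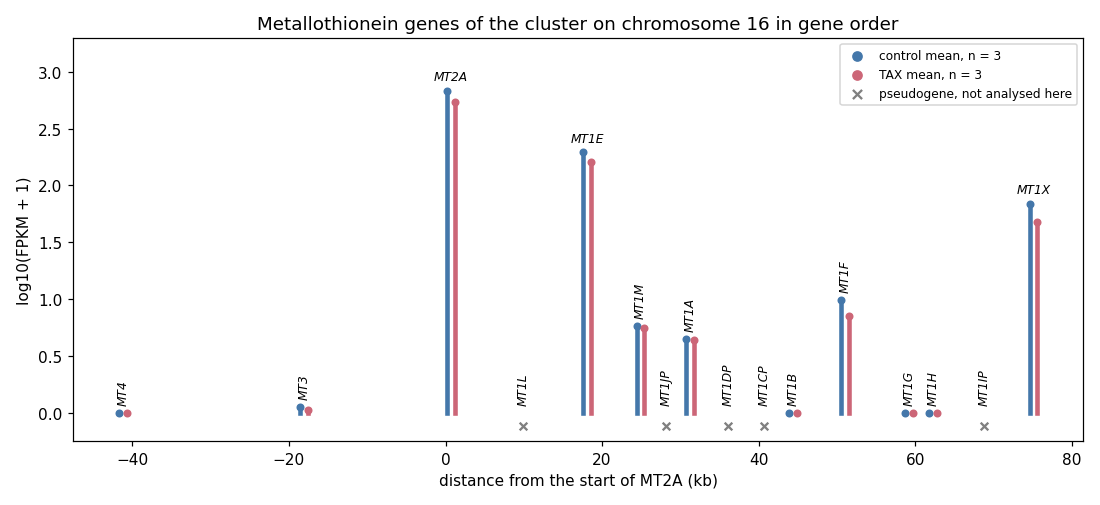
Mean level of the metallothionein genes in control and TAX (n = 3 each) as log10(FPKM + 1) against distance from the start of MT2A in kilobases, with pseudogenes marked as not analysed here. MT2A, MT1E and MT1X stand above the rest of the cluster, and MT1G, MT1B and MT1H are at 0.

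In control cells the levels ran in the order MT2A, MT1E, MT1X, SLC30A1, MT1F, MT1M, MTF1 and MT1G, and only the neighbours MT1M and MTF1 overlapped between libraries. In TAX cells the order was the same down to MT1F, and MT1F, MTF1 and MT1M overlapped with their neighbours. MT2A exceeded MT1E by 3.51 times in control means and 3.39 times in TAX means.

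The genes varied together among the TAX libraries. In all 7 detected genes TAX 1 was highest, TAX 3 next and TAX 2 lowest, an order held by 2353 of the 12359 tested genes, or 19%. In control the order was not shared, since MT2A and MT1F were highest in control 1 and MT1E, MT1X, MT1M, MTF1 and SLC30A1 in control 2. SLC30A1 was the most variable, with a coefficient of variation of 29.9% in control and 27.8% in TAX, against medians over tested genes of 9.83% and 6.0%. MT2A varied by 12.8% and 4.72%, and MT1M by 8.39% and 27.1%.

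The genes were also compared by their ratios within a library. Of 7 ratios, chosen after the values were seen, 2 did not overlap between the groups. The share of ratios without overlap among all tested genes was not counted, so this count cannot be called unusual. SLC30A1 over MT1X was 0.264, 0.331 and 0.284 in control and 0.492, 0.415 and 0.432 in TAX, a log2 difference of 0.61. MTF1 over MT2A was 0.00606, 0.00730 and 0.00690 in control and 0.00997, 0.00929 and 0.0103 in TAX, a log2 difference of 0.55. Both gave p = 0.1 in a two-sided exact permutation test, the smallest that 3 against 3 libraries allow, and 0.35 adjusted over the 7 ratios. For MTF1 over MT2A that outcome was fixed in advance. Every TAX library lay above all control libraries in MTF1 and below them in MT2A, so the ratio only restates the 2 genes. As the ratios were chosen after the values were seen, these p-values are descriptions. MT1E over MT2A differed by 0.047 on the log2 scale (exact permutation p = 0.9), less than its spread between libraries.

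SLC30A1 was high in control 2, TAX 1 and TAX 3 and low in the other libraries. Several genes of other lists, named after their values were seen, were also highest in those 3 libraries. HSPA1A, an inducible heat shock chaperone, was at 34.7, 102.3 and 30.1 FPKM in control and 58.1, 34.6 and 51.8 FPKM in TAX. Its co-chaperone DNAJB1 was at 56.3, 122.1 and 50.7 FPKM and 84.6, 60.8 and 82.0 FPKM. Over the 6 libraries their Pearson r with SLC30A1 was 0.904 and 0.897, while HMOX1, the inducible heme oxygenase, gave 0.256. ERRFI1 and SLC7A11, which are not chaperone genes, gave 0.902 and 0.899. How many of all tested genes reach such an r with SLC30A1 was not counted. These are descriptions over 6 points that share library effects.

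**Figure D5:**
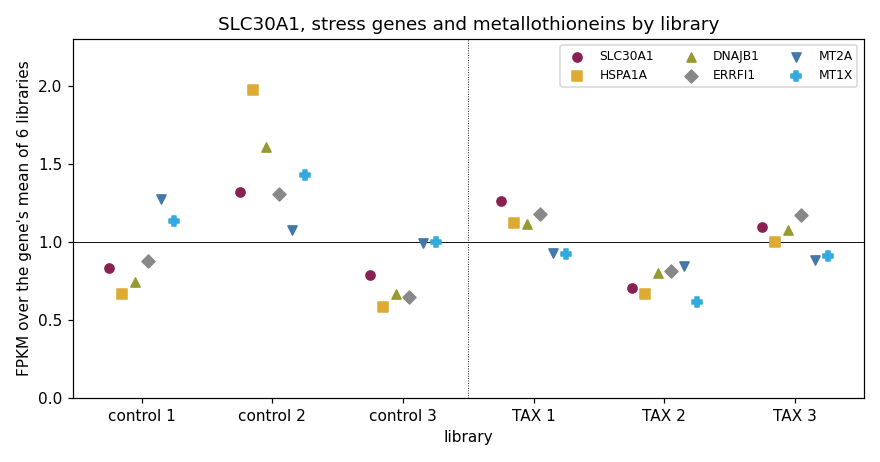
FPKM of SLC30A1, the stress genes HSPA1A and DNAJB1, ERRFI1 and 2 metallothioneins in each library, divided by the mean of the gene over the 6 libraries. SLC30A1, DNAJB1 and ERRFI1 are above 1 in control 2, TAX 1 and TAX 3. HSPA1A is above 1 in control 2 and TAX 1 and just under 1 in TAX 3. MT2A and MT1X are below 1 in all TAX libraries and just under 1 in control 3.

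By the likeness of the log2(FPKM + 1) values over the 6 libraries, the genes closest to MT2A were CIR1 (Pearson r = 0.993), EIF2AK2 (0.984), DPF1 (0.983), PDK3 (0.977) and C1RL (0.972). In all, 85 of 11638 genes compared exceeded an r of 0.9. The closest to the mean of the tested metallothioneins were FBXO16 (0.986), CASP10 (0.981), SHOC1 (0.977), CLIC3 (0.976) and RASD1 (0.975).

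The remaining zinc transporters showed no called gene. Of 23 listed, 16 were tested, 12 with a higher and 4 with a lower mean log2 value in TAX, and their median log2 difference was 0.043. SLC39A13, a zinc transporter of the secretory pathway, was at 9.43 FPKM in control and 12.3 FPKM in TAX, with no overlap and an adjusted p of 0.166 in limma. SLC30A7, which loads zinc into the Golgi, had a log2 difference of 0.19, also without overlap (limma, adjusted p = 0.450). Of the 16, only these 2 were higher without overlap and 0 were lower, against 14.6% and 3.34% of all tested genes. The highest exporter was SLC30A9 at 23.1 and 23.8 FPKM, and the highest importer SLC39A1 at 136 and 140 FPKM.

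Copper handling genes, which meet metallothioneins through their copper sites, gave 0 calls among 11 tested of 13, with 6 higher, 5 lower and a median log2 difference of 0.025. SCO2, a copper chaperone of cytochrome oxidase, was at 2.43 and 3.48 FPKM (adjusted p from limma 0.234), and SOD1, the copper and zinc superoxide dismutase, was highest at 153 and 145 FPKM. Of 15 metal and oxidative stress genes tested, 7 were higher and 8 lower, with 0 called and a median log2 difference of −0.015. TXNRD1, thioredoxin reductase, was highest at 808 and 828 FPKM. Among 9 zinc sensing partners 6 were higher and 3 lower, with 0 called and a median of 0.026, and NFE2L2, the oxidant-sensing factor NRF2, was highest at 54.1 and 52.8 FPKM.

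Glucocorticoids are known inducers of metallothionein genes. Of 11 listed glucocorticoid-responsive genes 10 were tested, 4 higher and 6 lower, with 0 called. CEBPD, a stress-induced transcription factor, averaged 48.5 FPKM in control and lay between 30.9 and 35.1 FPKM in TAX, without overlap, a log2 difference of −0.53 (SE 0.11, adjusted p from limma 0.0854). It passed the threshold when libraries were rescaled by quantiles, to TPM or by their medians (adjusted p from limma 0.0212, 0.0422 and 0.0205), and without control 3 (0.0466). In all other alternatives CEBPD did not pass. The median log2 difference of the list was −0.020. ERRFI1, a feedback inhibitor of EGFR, was highest at 214 and 239 FPKM.

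Metallothionein transcripts resemble each other, and the way in which reads that fit more than one of them were assigned is not given in the sources used here. In GENCODE 29, stretches of 50 bases shared with another gene's transcripts made up 43.6% of MT1X, 16.47% of MT1G, 9.87% of MT1M, 7.1% of MT1E, 4.24% of MT2A and 3.27% of MT1F. At 100 bases the share was 0 except in MT1X, where 30.84% was shared with the overlapping gene AC026461.1 on the same strand. The values of the MT1 genes, MT1X above all, are uncertain to that extent.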

How the data were processed

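mRNA libraries of DU145 cells were aligned with HISAT2 2.2.0 and assembled with StringTie 2.1.2 on GRCh38, per the submitters' processing notes. The deposited values are FPKM per gene, 1 file per library, made by the authors; the unit is not written in the files and was taken from the tools and the values. Low values did not fall on whole-read steps, so the depth is unknown and no counting interval can be given. Values were taken as log2(FPKM + 1), a gene was kept if 3 or more of the 6 libraries reached 1 FPKM (12359 genes), and TAX was compared with control by limma 3.58.1 (R 4.3.3, eBayes with trend) with Benjamini-Hochberg adjustment at 0.05. Single values were compared by exact permutation. On simulated data with 12359 genes and 200 changed for TAX against control, the step recovered 64% at a log2 change of 0.585 and 94% at 1. False calls numbered 2 and 12. Both changes were larger than the log2 difference of any tested member, so recovery at the sizes seen here is not shown. The simulated noise was independent between genes and held no shared library effects. The genes and lists were chosen with earlier results of these data known. The genes named were every member, list genes with an unadjusted p under 0.05, the highest of each list, the 5 genes most like MT2A and the metallothionein mean, and marker genes. The genes set beside SLC30A1 and the ratios were chosen after their values were seen. Alternatives were another pseudocount, other filters, 3 rescalings, limma without trend, a replicate block and leaving out each library.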

Additional observations from a re-analysis of the deposited data

How the results depend on the processing

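Among the 7 tested genes, 0 passed an adjusted p of 0.05 in any of the 14 alternatives. MT1E, MT1F, MT1X and MT2A were lower in TAX in 14 of 14, with unadjusted p under 0.05 in 6, 14, 14 and 13, and their adjusted p ranged over 0.235 to 0.811, 0.151 to 0.599, 0.173 to 0.599 and 0.142 to 0.773. Leaving out a library gave 2 to 5 genes lower and 0 to 1 higher at an unadjusted p under 0.05, with 5 lower without TAX 1 and 1 higher (MTF1) without TAX 2. Genes lower without overlap numbered 3 to 5, with 5 without TAX 1, and those higher without overlap were 1, or 0 on the TPM scale, where MTF1 overlapped. On the TPM, quantile and median-centred scales MT1E also lay apart. SLC30A1 changed sign under quantile normalization (−0.0080) and median centring (−0.00098) and ranged from −0.11 to 0.29 when a library was left out. MT1M ranged from −0.26 to 0.024, positive without TAX 2. The summed metallothionein ratio stayed between 0.750 and 0.839. CEBPD was the 1 glucocorticoid-responsive gene called under quantile normalization, TPM, median centring and without control 3. The labels do not say whether libraries with the same number share more than that number. Correlations of their deviations were −0.117, −0.333 and −0.171. Those between a control and a TAX library with different numbers ran from −0.167 to 0.292. With the replicate block, 0 members were called and 3 were lower at an unadjusted p under 0.05, and it changed no other call of these genes. Over all tested genes, 59 were called, 95 with quantile normalization, 70 on the TPM scale, 96 with median centring, 53 with a pseudocount of 0.1, 37 with a filter of 0.1 FPKM, 1 with no filter, 26 with the replicate block and 18 to 43 without one library. The cause of these changes was not tested. Depth is unknown, so its part in these limits was not tested.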
